A study of Mus musculus with 6 samples.

Results

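The genes described here encode the nuclear subunits of respiratory complex I and the assembly factors that carry the name Ndufaf. They were chosen by symbol, as Nduf followed by a, b, c, s, v, ab or af and a number, without pseudogenes and without *Ndufa4l2*, and had to hold at least 10 counts in at least 3 of the 6 libraries. Of 50 matching entries 45 were kept, 37 subunits and 8 assembly factors, out of 49671 genes in the table. Ndufb1 was not analysed here. All 45 were also among the 16089 genes that passed the count filter and were tested. RNA was sequenced from whole livers of 3 SHMT2 fl/fl mice, labelled WT, and 3 SHMT2 HKO mice, labelled KO. Both groups carried the floxed *Shmt2* allele, and the SHMT2 HKO mice also carried Albumin-Cre, used to delete the gene in hepatocytes. From protein blots of whole liver, the paper proposes that SHMT2 in the non-parenchymal cells was left intact. Which cells kept the gene was not tested here. All 6 were C57BL/6J males and ate the AMLN diet, which supplies much fat along with fructose and cholesterol. It began at 4 weeks of age and lasted 18 weeks, so the data hold no liver on another diet. The comparison asks which complex I transcripts differ in abundance between these genotypes, and whether subunits and assembly factors differ by the same amount.

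Complex I is the entry point of electrons from NADH into the respiratory chain of the inner mitochondrial membrane. Its matrix arm holds the N module, which oxidizes NADH, and the Q module, which passes the electrons through iron-sulfur clusters to ubiquinone. Its membrane arm pumps protons and is built around subunits encoded in mitochondrial DNA, while the other core subunits and all accessory subunits are encoded in the nucleus. Assembly factors join modules of the complex while it is built and are not part of the finished enzyme. The liver is rich in mitochondria, and SHMT2 is the mitochondrial enzyme that converts serine to glycine and one-carbon units.

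Counts on genes ranged from 23090837 to 34089722 per library, and a count of 3 was worth 0.0734 to 0.152 CPM, the unit used here for levels (reads of a gene relative to the size of its library, after TMM, a scaling that centres the bulk of genes between libraries). *Shmt2* had 94.6, 109 and 93.9 CPM in SHMT2 fl/fl mice 1 to 3, and 24.9, 28.3 and 19.3 CPM in SHMT2 HKO mice 1 to 3. Its level was thus lower in SHMT2 HKO (log2 fold change -2.04 ± 0.16, SE, adjusted p = 0.000639, edgeR), in the direction of the labels, and the exact permutation test gave the smallest p that 3 against 3 mice allow, 0.1. The libraries of SHMT2 HKO mouse 3 and of the other two SHMT2 HKO mice differed in the TMM factor (0.98 compared with 0.81 and 0.80) and in the share of counts on ERCC spike-in RNAs (1.35% compared with 2.75% and 2.31%), and mouse 3 lay nearest to SHMT2 fl/fl in most complex I genes, so counts are also given without it. Hepatocyte markers were present in every library, with a summed level of 56357 to 69591 CPM in SHMT2 fl/fl and 72268 to 107665 CPM in SHMT2 HKO, and 2 of 8 passed the test as higher (*Cyp2e1* and *Ttr*). The summed level of 5 cholangiocyte markers was 951 to 1181 CPM in SHMT2 fl/fl and 128 to 245 CPM in SHMT2 HKO (5 of 5 lower), that of 7 stellate cell and fibroblast markers 1189 to 1268 and 286 to 742 CPM (4 lower), and that of 6 lymphocyte markers 34.5 to 54.1 and 13.3 to 22.4 CPM (4 lower). The 7 macrophage markers summed to 194 to 241 and 203 to 268 CPM (2 higher, 3 lower), and the 5 endothelial markers to 126 to 150 and 203 to 236 CPM (2 higher). Most of the cholangiocyte sum came from *Spp1* (792 to 944 CPM in SHMT2 fl/fl and 104 to 215 CPM in SHMT2 HKO). Most of the lymphocyte sum came from *Ptprc* (23.6 to 38.9 and 10.6 to 19.0 CPM). No marker of these lists was at 0 in any library. The part of these differences in the values below was not tested, and in whole liver fewer cells of a type and less RNA per cell cannot be told apart.

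In the TMM-scaled data, 23 of the 45 complex I genes were called higher in SHMT2 HKO and 0 lower (edgeR quasi-likelihood test, Benjamini-Hochberg adjusted p under 0.05). Over all genes tested, 12.5% were called higher and 16.5% lower. The 23 comprised 20 of 37 subunits and 3 of 8 assembly factors. The number called depended on single mice. Without SHMT2 HKO mouse 3 it was 42 of 45, beside 15% of all genes. Without SHMT2 HKO mouse 1 it was 10 of 45, beside 1967 of the 16089 genes. Without SHMT2 HKO mouse 2 it was 2 of 45, a smaller share than the 1117 of the 16089 genes. It was 1 to 3 without one of the SHMT2 fl/fl mice, and the share of all genes called higher in those fits is not given here. Of the 23 calls, 1 held in all 6 of these fits. With all 6 mice, at the cutoff that the study used (p under 0.05 with adjusted p under 0.25), 37 of 45 were higher and 0 lower, beside 19.5% of all genes higher. The fold changes of all 45 were above 0, compared with 51.9% of all genes, but scaling to the ERCC spike-ins put 43 of the 45 below 0. Relative to the median of all genes, which these scalings move together with the members by construction, 44 of 45 lay above and *Ndufaf3* below. In 24 of 45 genes every SHMT2 HKO mouse was above every SHMT2 fl/fl mouse, which was true of 21.9% of all genes.

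**Figure D1:**
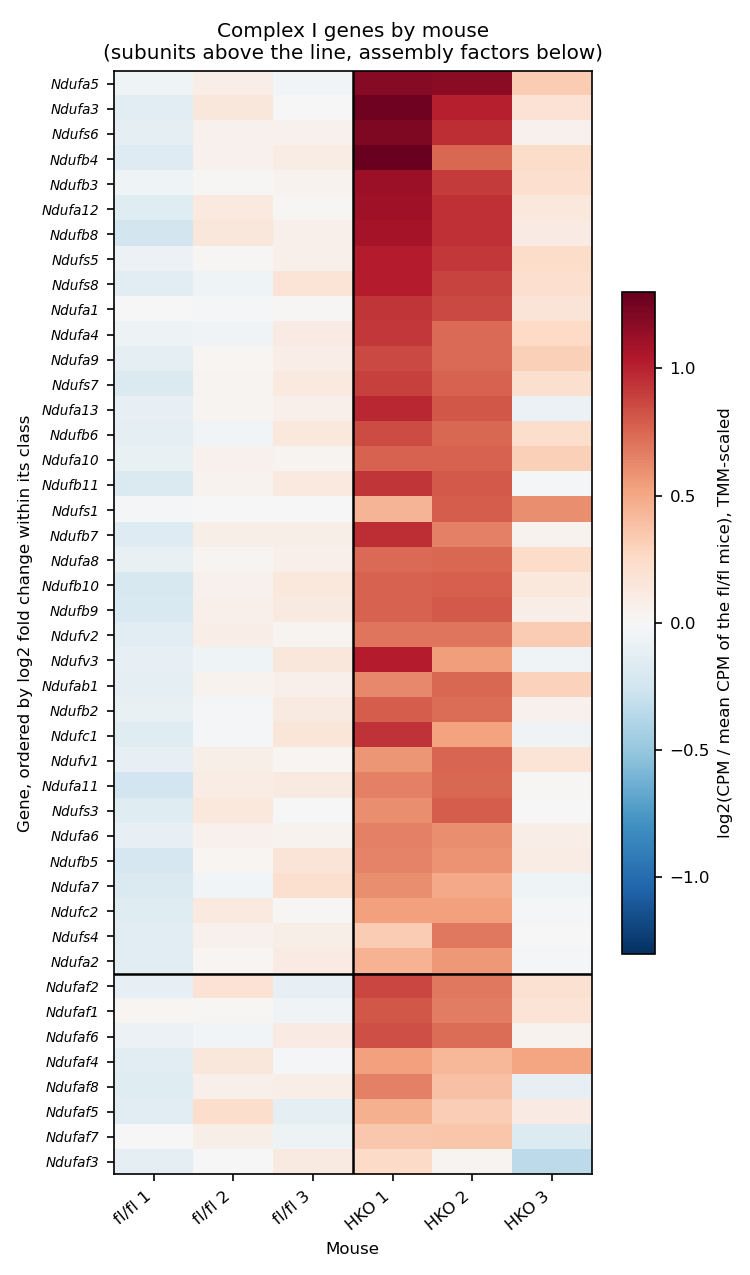
Level of 44 of the 45 complex I genes in each mouse, as log2 of its CPM over the mean CPM of the 3 SHMT2 fl/fl mice (color), with genes as rows and mice as columns. SHMT2 HKO mice 1 and 2 are red in nearly all rows and mouse 3 is pale in most, and *Ndufs1* and *Ndufaf4* are the rows in which mouse 3 matches mice 1 and 2. Values are TMM-scaled, and with ERCC scaling 43 of 45 fold changes between genotypes were below 0.

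Promoter sequences from RefSeq (GRCm38.p6, the assembly series of the counts) were available for 40 of the 45 genes, as windows from 250 bases before to 50 after the transcription start. The promoters of the other genes, *Ndufs1* among them, were not analysed here. Nuclear respiratory factor 1, which is known to bind promoters of respiratory chain genes, recognizes a GC-rich palindrome. The NRF1 pattern searched here is that palindrome with 1 central base left free, as it stands in capitals in the sequences printed below. It was found in 7 of 33 subunit windows (21.2%) and in 2 of 7 assembly factor windows (28.6%), compared with 10.3% of the 11685 tested genes with a window and 5.19% of all 27025 promoters. The YY1 pattern AAGATGGCG was found in 5 of 33 subunit windows (15.2%), compared with 3.14% of tested genes. The ETS pattern CCGGAAG was found in 12.1% of subunit windows and 18.2% of tested genes, and the SP1/KLF pattern GGGCGG in 45.5% and 64.7%. CCAAT was in 30.3% of subunit windows and 42.3% of tested genes, TATAAA in 12.1% and 9.64%, and the ERR pattern AAGGTCA in 9.09% and 4.33%. Both strands were searched for every pattern, and a match marks letters only, without evidence of binding. The 250 bases before the start are shown for 3 of the subunits with the largest differences (*Ndufa5*, *Ndufs6* and *Ndufb4*), chosen because all 3 have an NRF1 match, whereas *Ndufa3* and *Ndufb3*, also among the 5 largest, have none, for *Ndufaf4*, an assembly factor that was higher in SHMT2 HKO, and for *Ndufaf3*, the gene with the smallest difference. They lie at chr6:24527691-24527940 (minus strand, the more upstream of 2 listed starts), chr13:73328483-73328732 (minus), chr16:37654369-37654618 (minus), chr4:24897833-24898082 (plus) and chr9:108567437-108567686 (minus), and are written 5′ to 3′ along the gene with matches to the NRF1 pattern (the long runs), to GGGCGG and to the shorter CCAAT, each on either strand, in capitals.
Ndufa5: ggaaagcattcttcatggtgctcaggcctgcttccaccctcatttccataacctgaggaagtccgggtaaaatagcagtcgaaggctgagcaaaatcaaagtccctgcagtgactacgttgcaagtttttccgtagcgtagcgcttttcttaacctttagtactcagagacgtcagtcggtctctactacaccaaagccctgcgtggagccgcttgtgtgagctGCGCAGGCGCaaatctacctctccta
Ndufs6: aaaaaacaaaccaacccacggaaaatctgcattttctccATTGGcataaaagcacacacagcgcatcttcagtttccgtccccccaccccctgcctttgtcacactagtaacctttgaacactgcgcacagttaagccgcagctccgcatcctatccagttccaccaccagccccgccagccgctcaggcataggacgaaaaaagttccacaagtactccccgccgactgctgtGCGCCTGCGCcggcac
Ndufb4: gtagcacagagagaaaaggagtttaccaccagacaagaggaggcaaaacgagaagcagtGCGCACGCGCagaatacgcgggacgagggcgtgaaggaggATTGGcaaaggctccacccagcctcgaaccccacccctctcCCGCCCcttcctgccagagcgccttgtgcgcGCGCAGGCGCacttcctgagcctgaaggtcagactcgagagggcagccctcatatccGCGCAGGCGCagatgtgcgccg
Ndufaf4: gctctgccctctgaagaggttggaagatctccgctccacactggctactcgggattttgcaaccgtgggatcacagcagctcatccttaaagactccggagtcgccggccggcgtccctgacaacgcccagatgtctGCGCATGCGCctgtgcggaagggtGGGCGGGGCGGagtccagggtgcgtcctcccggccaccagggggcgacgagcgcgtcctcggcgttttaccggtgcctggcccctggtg
Ndufaf3: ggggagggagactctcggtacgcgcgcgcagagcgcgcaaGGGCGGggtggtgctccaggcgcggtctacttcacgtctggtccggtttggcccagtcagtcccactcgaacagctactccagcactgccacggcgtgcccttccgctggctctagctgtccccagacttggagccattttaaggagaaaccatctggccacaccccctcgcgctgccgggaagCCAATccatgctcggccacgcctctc
The NRF1 match in *Ndufa5* began at -26 from the start and that in *Ndufs6* at -16. *Ndufb4* held 3 matches, at -191, -79 and -22. The match in *Ndufaf4* was the full palindrome at -113, a form found in 2.09% of tested genes. The *Ndufaf3* window held none, but had an SP1/KLF match at -210 and a CCAAT match at -26. Of the subunits with a window, the NRF1 pattern was in 5 of the 19 that were called higher and in 2 of the 14 that were not. The full palindrome was in 0 and 1 of them, GGGCGG in 11 and 4, and CCAAT in 4 and 6. CCGGAAG was in 2 and 2, AAGATGGCG in 3 and 2, TATAAA in 2 and 2, and AAGGTCA in 2 and 1. A relation between patterns and calls was not tested.

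The 3 core subunits of the N module were all called higher. *Ndufs1*, the largest core subunit and carrier of several iron-sulfur clusters (chromosome 1, 63143596 to 63176833, minus strand, GRCm38), had 77.9, 78.9 and 78.6 CPM in SHMT2 fl/fl mice 1 to 3 and 107, 135 and 119.5 CPM in SHMT2 HKO mice 1 to 3. The groups did not overlap, and SHMT2 HKO mouse 3 lay between the other two. Its level was 1.54-fold (95% interval 1.26 to 1.87) that of SHMT2 fl/fl (log2 fold change 0.62 ± 0.12, SE, adjusted p = 0.00853, edgeR), and it was the one complex I gene that remained called in each of the 6 fits that left out a mouse. *Ndufv1*, which binds NADH and the flavin, had 152, 173 and 167 CPM in SHMT2 fl/fl and 245, 277 and 185 CPM in SHMT2 HKO. Its log2 fold change was 0.52 ± 0.17 (adjusted p = 0.0487). *Ndufv2*, the iron-sulfur partner of *Ndufv1*, had 70.9, 82.8 and 79.7 CPM and 126, 126 and 97.5 CPM (0.58 ± 0.14, adjusted p = 0.0179). In both genes the 2 groups were apart, with SHMT2 HKO mouse 3 closest to SHMT2 fl/fl.

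Of the nuclear core subunits of the Q module, *Ndufs8* and *Ndufs7* were called higher. *Ndufs8*, which carries iron-sulfur clusters of the Q module, had 56.4, 60.3 and 70.9 CPM in SHMT2 fl/fl and 127, 115 and 72.8 CPM in SHMT2 HKO (0.75 ± 0.21, adjusted p = 0.0294). *Ndufs7*, which holds the last cluster before ubiquinone, had 80.9, 94.4 and 100.3 CPM and 169.9, 156 and 106 CPM (0.65 ± 0.19, adjusted p = 0.0336). In both, the lowest SHMT2 HKO mouse was just above the highest SHMT2 fl/fl mouse. *Ndufs3*, also of the Q module, had 99.6, 121 and 111 CPM and 168, 191 and 110.3 CPM, and SHMT2 HKO mouse 3 fell within the SHMT2 fl/fl range (0.50 ± 0.20, adjusted p = 0.0995). Without SHMT2 HKO mouse 3, all 3 of these genes were called higher.

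Accessory subunits surround the core without carrying redox groups themselves, and 13 of 28 were called higher: 4 of 9 in the matrix arm, 5 of 9 in the proximal membrane arm and 4 of 10 in the distal membrane arm. Their medians differed little between these places (0.57, 0.63 and 0.61 on the log2 scale). The 5 largest differences among subunits outside the core were in *Ndufa5*, *Ndufa3*, *Ndufs6*, *Ndufb4* and *Ndufb3*. *Ndufa5*, of the matrix arm, had 46.4, 51.2 and 47.0 CPM in SHMT2 fl/fl and 109.8, 109 and 60.7 CPM in SHMT2 HKO, which was 1.93-fold (95% interval 1.37 to 2.73) the SHMT2 fl/fl level (0.95 ± 0.22, adjusted p = 0.0146). *Ndufa3*, of the proximal membrane arm, had 43.7, 53.7 and 48.2 CPM and 116, 97.6 and 55.5 CPM (0.89 ± 0.25, adjusted p = 0.0305). In both genes SHMT2 HKO mice 1 and 2 were far above the SHMT2 fl/fl mice, and mouse 3 was only slightly above them. *Ndufs6*, which binds zinc near the N module, had 61.2, 68.9 and 69.0 CPM and 154, 129 and 68.9 CPM (0.82 ± 0.26, adjusted p = 0.0491). Here mouse 3 lay within the SHMT2 fl/fl range. The distal membrane arm subunits followed. *Ndufb4* had 15.4, 17.9 and 18.5 CPM and 42.1, 29.0 and 20.3 CPM (0.82 ± 0.24, adjusted p = 0.0371). *Ndufb3* had 43.8, 46.2 and 47.0 CPM and 98.7, 86.0 and 53.0 CPM (0.79 ± 0.21, adjusted p = 0.0250). Both had groups that did not overlap.

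The 5 smallest differences among these subunits were in *Ndufb5*, *Ndufa7*, *Ndufc2*, *Ndufs4* and *Ndufa2*, none of which passed the test. *Ndufa2*, of the N module, had 53.7, 59.7 and 63.2 CPM in SHMT2 fl/fl and 80.2, 87.2 and 57.9 CPM in SHMT2 HKO (0.35 ± 0.16, adjusted p = 0.146). *Ndufs4*, needed for a stable N module and mutated in Leigh syndrome, had 50.8, 58.0 and 59.1 CPM and 70.5, 90.3 and 56.2 CPM (0.37 ± 0.18, adjusted p = 0.15). *Ndufa7*, of the matrix arm, had 56.6, 63.0 and 74.5 CPM and 98.5, 91.0 and 62.3 CPM (0.37 ± 0.19, adjusted p = 0.173). In each of these 3, SHMT2 HKO mice 1 and 2 were above all SHMT2 fl/fl mice and mouse 3 was inside the SHMT2 fl/fl range. *Ndufc2*, of the proximal membrane arm, had 58.3, 71.2 and 65.8 CPM and 94.2, 94.4 and 64.5 CPM (0.37 ± 0.17, adjusted p = 0.134). *Ndufb5*, of the distal membrane arm, had 51.4, 61.1 and 67.0 CPM and 93.6, 90.0 and 64.0 CPM (0.46 ± 0.17, adjusted p = 0.0774). All 5 passed without SHMT2 HKO mouse 3, as did every other subunit.

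A pair of subunits have a role beyond complex I. *Ndufa4*, first assigned to complex I and now known as a subunit of complex IV, had 174, 177 and 196 CPM in SHMT2 fl/fl and 345, 303 and 218 CPM in SHMT2 HKO, with groups apart (0.66 ± 0.18, adjusted p = 0.0286). Without *Ndufa4* the median of the other subunits was still 0.60. *Ndufab1*, the mitochondrial acyl carrier protein, which also serves fatty acid synthesis in mitochondria, was higher as well (0.57 ± 0.14, adjusted p = 0.0200).

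**Figure D2:**
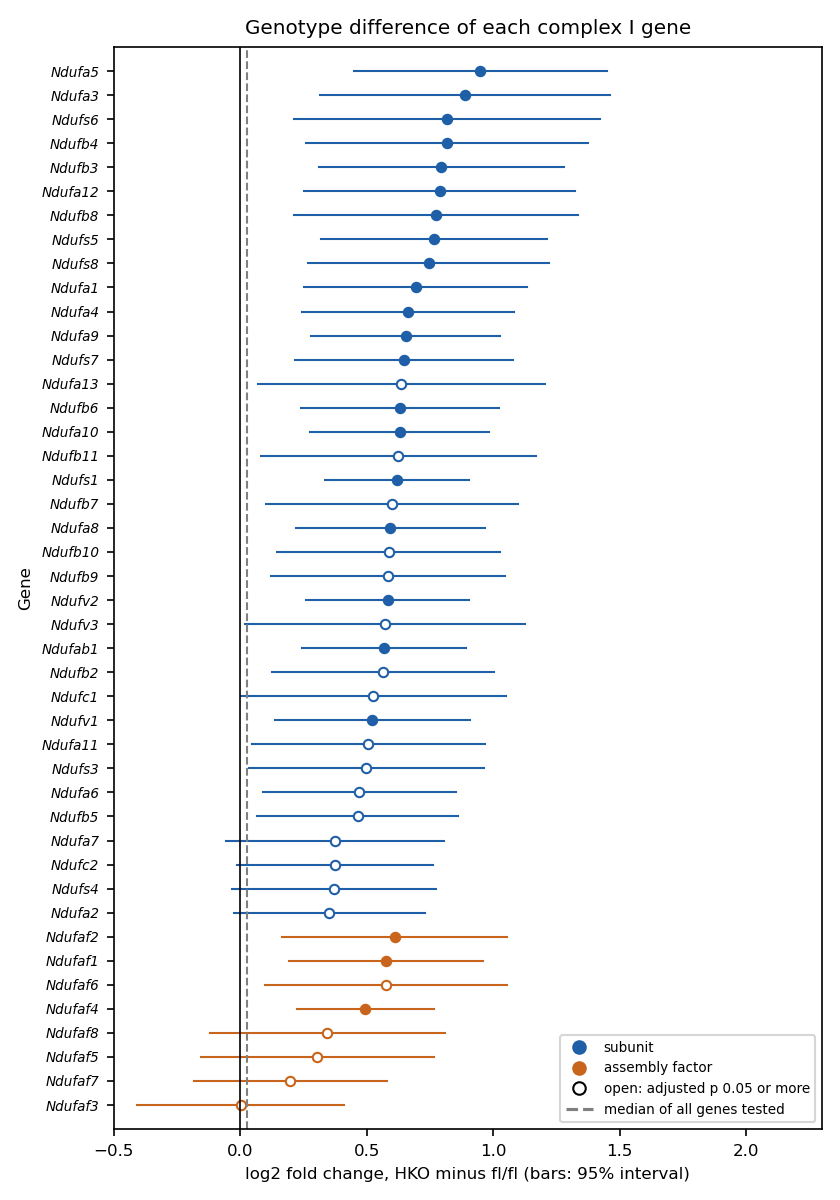
Log2 fold change between SHMT2 HKO and SHMT2 fl/fl for 44 of the 45 complex I genes, with its 95% interval as a bar. Filled circles passed the test, open circles did not, and the dashed line is the median of all genes, 0.027. Subunits (blue) run from 0.35 in *Ndufa2* to 0.95 in *Ndufa5*, and assembly factors (orange) from 0.0015 in *Ndufaf3* to 0.61 in *Ndufaf2*, all TMM-scaled, while 43 of all 45 were below 0 with ERCC scaling.

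Of the 8 assembly factors, *Ndufaf1*, *Ndufaf2* and *Ndufaf4* were called higher. *Ndufaf4*, which works with *Ndufaf3* on the Q module (chromosome 4, 24898083 to 24905001, plus strand), had 26.5, 32.7 and 29.1 CPM in SHMT2 fl/fl mice and 42.7, 39.6 and 42.1 CPM in SHMT2 HKO mice. Its 3 SHMT2 HKO values were close together, mouse 3 included, and all above SHMT2 fl/fl, and the mean level was 1.41-fold (95% interval 1.17 to 1.70) that of SHMT2 fl/fl (0.49 ± 0.12, adjusted p = 0.0167). *Ndufaf3*, its partner, had 10.6, 11.5 and 12.5 CPM and 13.7, 11.9 and 9.13 CPM, and the groups overlapped (0.0015 ± 0.18, adjusted p = 0.996). The 95% interval of its fold, 0.754 to 1.33, does not reach the subunit median of 1.52-fold. That median comes from the same mice and varied between them (pooled SD 0.28 on the log2 scale), which the interval leaves out. *Ndufaf3* was also singled out as the complex I gene with the smallest fold change. Whether *Ndufaf3* differed from the subunits was not tested. *Ndufaf1*, part of the complex that builds the membrane arm, had 19.2, 19.1 and 18.3 CPM and 33.0, 30.0 and 21.4 CPM (0.58 ± 0.17, adjusted p = 0.0336). *Ndufaf2*, a relative of *Ndufa12* that is bound late in assembly, had 11.0, 13.5 and 11.0 CPM and 21.6, 18.9 and 13.5 CPM (0.61 ± 0.19, adjusted p = 0.0466). The groups were apart in both, narrowly so in *Ndufaf2*.

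The other 4 did not pass the test. *Ndufaf6*, which acts early in assembly, had 10.3, 10.6 and 11.7 CPM and 19.4, 18.0 and 11.3 CPM, with SHMT2 HKO mouse 3 inside the SHMT2 fl/fl range (0.58 ± 0.21, adjusted p = 0.0710). *Ndufaf5*, which hydroxylates *Ndufs7*, was the least abundant, with 4.33, 5.57 and 4.36 CPM and 6.54, 5.93 and 5.12 CPM (0.30 ± 0.20, adjusted p = 0.292). *Ndufaf8* binds *Ndufaf5*, and had 9.91, 11.6 and 11.7 CPM and 17.4, 14.4 and 10.3 CPM (0.34 ± 0.20, adjusted p = 0.238). The groups overlapped in both members of this pair. *Ndufaf7*, a mitochondrial methyltransferase, had 15.9, 16.8 and 15.2 CPM and 20.3, 20.5 and 14.1 CPM (0.20 ± 0.17, adjusted p = 0.412), and mouse 3 was below all SHMT2 fl/fl mice.

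Subunit transcripts were more abundant than those of the assembly factors, and their median fold change was larger. Per kilobase of transcript, the SHMT2 fl/fl level had a median of 93.6 CPM per kb over the subunits and 9.59 CPM per kb over the assembly factors. *Ndufa4* was highest at 403 ± 26.1 (SD, n = 3), followed by *Ndufa6* at 177 ± 11.1, and *Ndufb4* was the lowest subunit at 17.8 ± 1.68. The highest assembly factor, *Ndufaf2*, was at 17.4 ± 2.13, which did not differ from *Ndufb4* beyond their spread, and *Ndufaf5* was at 4.08 ± 0.606. The median log2 fold change was 0.60 over the subunits (1.52-fold), 0.42 over the assembly factors (1.34-fold) and 0.027 over all genes, and with ERCC scaling these became -0.21, -0.37 and -0.69. The subunit and assembly factor medians lay 0.18 apart. By mouse, the difference between the median log2 ratios of subunits and assembly factors was -0.018, -0.025 and 0.098 in SHMT2 fl/fl and 0.25, 0.34 and 0.060 in SHMT2 HKO. SHMT2 HKO mouse 3 was below SHMT2 fl/fl mouse 3 here, so the groups overlapped. The 7 core and the 28 accessory subunits had medians of 0.58 and 0.61. Between the log2 level per kilobase in SHMT2 fl/fl and the log2 fold change, r was 0.39 and rho 0.22 over the 45 genes. Over the 37 subunits alone they were -0.13 and -0.12, and over 16051 genes 0.18 and 0.25. The part of abundance in the difference between the 2 classes was not tested.

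Complex I has further assembly factors with other names, of which 14 of 15 listed were matched and tested. In this list 8 were called higher and 0 lower, with a median log2 fold change of 0.49. The called genes were *Tmem70*, *Tmem126b*, *Timmdc1*, *Aifm1*, *Foxred1*, *Dmac1*, *Ecsit* and *Dmac2*, from 0.42 to 0.80. The LYR protein *Lyrm2* (-0.11 ± 0.16, adjusted p = 0.620) and the import protein *Chchd4* (0.029 ± 0.18, adjusted p = 0.918) were below the rest. The 7 complex I subunits encoded in mitochondrial DNA were all called higher, with a median of 1.05. These genes ran from 0.83 in *mt-Nd1* (mean SHMT2 fl/fl level 3440 CPM) to 1.58 in *mt-Nd4l* (1.81 CPM). With ERCC scaling their median was 0.25, all 7 were still above 0 and 0 were called. Their median log2 ratios to SHMT2 fl/fl were 1.27, 1.12 and 0.70 in SHMT2 HKO mice 1 to 3, beside 0.84, 0.75 and 0.14 for the nuclear subunits, so that each SHMT2 HKO mouse had the higher value for the mitochondrially encoded genes. Of 39 nuclear subunits of complexes II to V, 16 were called higher and 0 lower (median 0.57). The medians by complex were 0.64, 0.49, 0.58 and 0.58. The difference between complex I and these complexes was not tested. Of these nuclear lists, 13 of the 14 assembly factors and all 39 subunits lay above the median of all genes.

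Markers of mitochondrial content had a median of 0.41, with 4 of 8 called higher: *Hspd1* (0.67 ± 0.15), *Cs* (0.56 ± 0.15), *Tfam* (0.42 ± 0.11) and *Timm23* (0.42 ± 0.13). Among them the outer membrane import receptor *Tomm20* was at 0.037 ± 0.11 (adjusted p = 0.827). With ERCC scaling the median of this list was -0.34. Among 8 regulators of respiratory chain genes, *Ppara*, a nuclear receptor for fatty acid catabolism, was the one called higher (1.10 ± 0.18, adjusted p = 0.00369), and 0 were lower. This share of 12.5% was no larger than that of all genes called higher, 12.5%. The genes for factors whose patterns were searched in the promoters gave -0.31 ± 0.16 for *Nrf1*, 0.31 ± 0.18 for the ETS factor *Gabpa*, 0.25 ± 0.15 for *Yy1* and 0.22 ± 0.14 for *Esrra* (adjusted p of 0.187, 0.228, 0.255 and 0.285). Of the matrix proteases that clear complex I subunits, *Clpp* was called higher (0.51 ± 0.15, adjusted p = 0.0402) and *Lonp1* was at 0.034 ± 0.15.

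**Figure D3:**
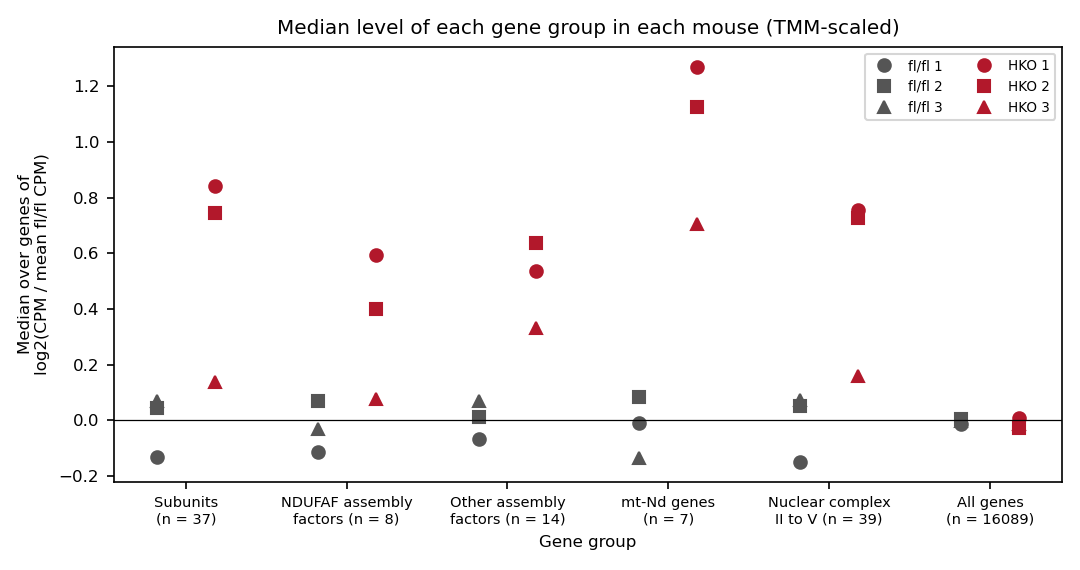
Median over the genes of each group of log2(CPM / mean SHMT2 fl/fl CPM) in each mouse (y axis), with SHMT2 fl/fl in grey and SHMT2 HKO in red and the mouse number as the marker. SHMT2 HKO mice 1 and 2 are above all SHMT2 fl/fl mice in the 5 respiratory chain groups, mouse 3 is nearest to SHMT2 fl/fl in each, and all genes sit at 0. Values are TMM-scaled, and the medians of the nuclear groups fell below 0 with ERCC scaling.

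The sign of these differences changed with the scaling of the libraries. Upper-quartile scaling gave a subunit median of 0.52 and library size alone one of 0.15, with 15 and 0 of the 45 genes called higher. Of all 16089 genes, upper-quartile scaling called 1461 higher. With library size alone the median of all genes was -0.40, the assembly factor median was -0.013, and 3.35% of all genes were called higher. With the ERCC spike-ins 0 of 45 were called in either direction, while 0.665% of all genes were called higher and 17.1% lower. Each ERCC estimate rests on a share of counts that ranged from 1.35% to 2.75% between libraries, and the share was highest in the 2 SHMT2 HKO mice with the highest complex I levels.

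**Figure D4:**
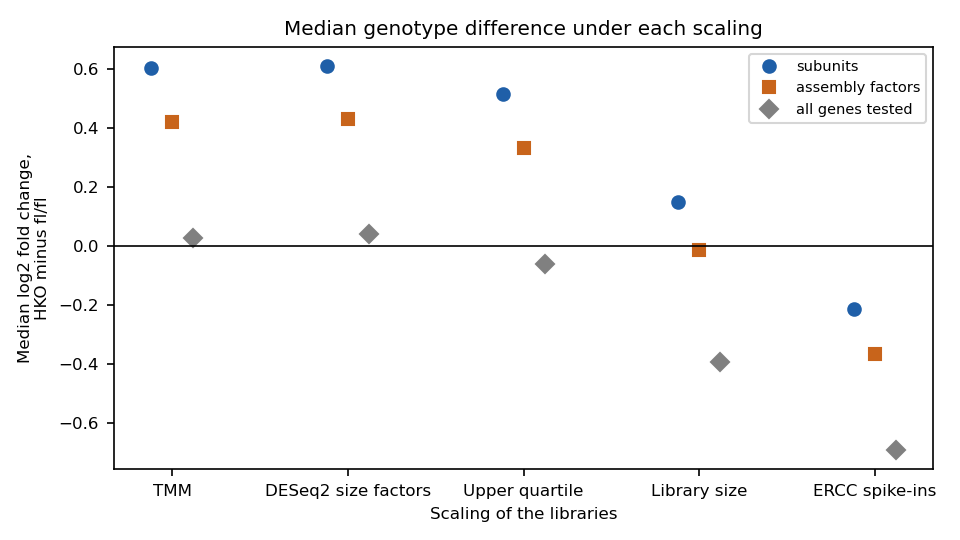
Median log2 fold change (y axis) of subunits (blue circles), assembly factors (orange squares) and all genes tested (grey diamonds) under 5 scalings of the libraries (x axis). The subunit median goes from 0.60 with TMM to -0.21 with the ERCC spike-ins, and the other medians move with it, since a scaling moves all genes of a library alike.

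SHMT2 HKO mouse 3 stood apart from the other two in these genes. It was below both of them in 43 of 45 genes, all but *Ndufs1* and *Ndufaf4*, and in 5587 of all 16089. The same was true of 38 of 39 nuclear subunits of complexes II to V, 6 of 7 mitochondrially encoded complex I subunits and 7 of 8 hepatocyte markers. The median log2 ratios of the hepatocyte markers to SHMT2 fl/fl were 0.78, 0.60 and 0.17 in SHMT2 HKO mice 1 to 3, beside 0.84, 0.75 and 0.14 for the subunits. Mouse 3 was above every SHMT2 fl/fl mouse in 24 complex I genes, whereas mouse 1 was in 45 and mouse 2 in 44. Of all 16089 genes, the counts were 5983 for mouse 3, 6652 for mouse 1 and 6268 for mouse 2. Without mouse 3 the subunit median was 0.76 and all 37 subunits passed, and of the assembly factors *Ndufaf3*, *Ndufaf5* and *Ndufaf7* did not. When single mice were left out, the median moved between 0.51 and 0.76 for the subunits.

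The deficit of mouse 3 went along with transcript length. Over the 37 subunits, the log2 ratio of mouse 3 to the mean of mice 1 and 2 had a Pearson r of 0.49 and a Spearman rho of 0.41 with the log2 length of the principal transcript, and over 16051 genes r was 0.19 and rho 0.29. These are correlations across genes of the same libraries, and genes are not independent replicates. The median log2 ratio was -0.70 in the 26 complex I genes of up to 1000 bases and -0.52 in the 16 of 1000 to 2000 bases. In the 3 longer ones it was -0.019, from values of -0.46 in *Ndufa10*, -0.019 in *Ndufs1* and 0.035 in *Ndufaf4*. Over all genes the corresponding medians were -0.33, -0.17 and 0.023. Thus in both shorter ranges the complex I genes of mouse 3 were further down than other genes of like length. The genotype difference itself had little relation to length among the subunits (r = -0.10, rho = -0.12). Over all 45 complex I genes the values were r = -0.25 and rho = -0.27, and over 16051 genes r = -0.099 and rho = -0.13. All tested genes of up to 1000 bases had a median log2 fold change of 0.20, beside 0.62 for the 26 complex I genes of that length. With a loess correction of the counts for transcript length and GC content, the subunit median was 0.63. The median of all genes rose from 0.027 to 0.19, so the subunits lay less far above it. The number called rose to 35, beside 25.4% of all genes. What sets mouse 3 apart was not tested.

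**Figure D5:**
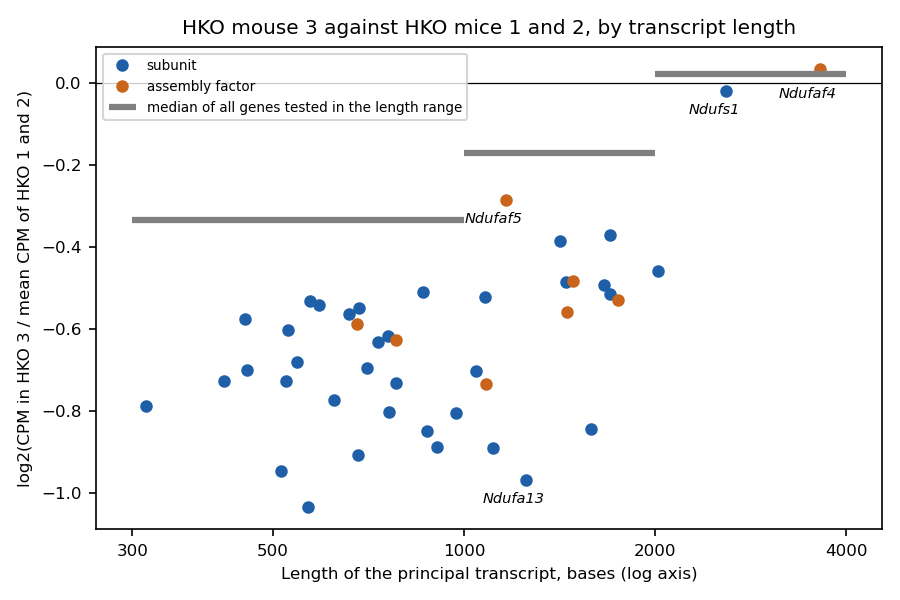
Log2 ratio of the CPM of SHMT2 HKO mouse 3 to the mean CPM of mice 1 and 2 (y axis) against transcript length (log x axis) for subunits (blue) and assembly factors (orange), 44 of the 45 genes, with the median of all genes in 3 length ranges in grey, the first covering everything up to 1000 bases. The long transcripts *Ndufs1* and *Ndufaf4* are near 0, and the others are below the grey lines.

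Neighboring genes limit some of these values. Exons of another gene overlap the principal transcript in 16 of the 45 genes, on the opposite strand in 14, and the strand setting of the counting is not given in the sources used here. The largest overlap was 39.0% of *Ndufb6*, by *Smim27*. It was, for example, 11.5% in *Ndufa2*, 9.58% in *Ndufs1*, 5.28% in *Ndufs6* and 3.23% in *Ndufaf3*. Transcript length was uncertain for *Ndufb2*, *Ndufab1* and *Ndufc1*, and with it their levels per kilobase.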

How the data were processed

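The values deposited by the authors are raw counts per gene and per ERCC spike-in RNA, without normalization, for 6 liver libraries. The authors trimmed paired-end reads with Trimmomatic 0.36, aligned them with STAR 2.5.2b to GRCm38 plus the spike-in sequences, and took the unique hits of each gene (Subread 1.5.2 in the submitters' processing notes). Columns were mapped to mice by their labels, and 0 columns were left unmapped. Symbols, coordinates and transcript lengths came from the GENCODE annotation (GRCm38), and 345 gene IDs had no symbol. Genes were filtered with filterByExpr and tested with the quasi-likelihood test of edgeR 4.0.16 in R 4.3.3 (TMM, robust dispersions, no covariate, two-sided, Benjamini-Hochberg adjustment over 16089 genes, threshold 0.05), where the study used limma-voom. CPM are TMM-scaled, and ERCC counts stayed out of library sizes. Intervals cover the spread between 3 mice a group. Levels per kilobase divide CPM by the shortest principal transcript.

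The members, lists and tests were chosen with earlier results of these data known. Every member may be named, and values of each mouse are given for the core subunits, the 8 *Ndufaf* genes, *Ndufa4*, and the 5 other subunits with the largest and the 5 with the smallest fold change. Values of 1 member are not reported here, and it stays in the counts and medians. Genes of other lists are named where called against or outside the range of their list. Those called higher among the other assembly factors and content markers, and the genes of factors whose patterns were searched, were named after their values were seen. Alternatives were library size alone, upper-quartile and ERCC scaling, DESeq2 1.42.0, limma-voom 3.58.1, other count filters, non-robust dispersions, a replicate block, leaving out each mouse, a loess correction for transcript length and GC content, and the cutoff of the study. The edgeR step was tested on simulated data. Replicates differed by more than sampling noise, with a chi-square per gene of 25.9 or more in each pair of a group. No set test was run.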

Additional observations from a re-analysis of the deposited data

How the results depend on the processing

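No alternative called a complex I gene lower. *Shmt2* stayed lower under each, with log2 fold changes from -2.82 (ERCC) to -1.72 (length and GC correction). The 23 genes called higher (20 subunits and 3 assembly factors) became 0 (0 and 0) with library size alone, 15 (14 and 1) with upper-quartile scaling, 0 (0 and 0) with the ERCC spike-ins, 35 (31 and 4) with the length and GC correction, and 37 (33 and 4) at the cutoff of the study. DESeq2 called 32 and limma-voom 20. Of all 16089 genes, 1461 were higher with upper-quartile scaling, 2535 with DESeq2 and 1997 with limma-voom. The replicate numbers did not pair the mice, since the correlations of same-numbered mice were -0.046, 0.013 and -0.077. With the replicate block 11 complex I genes were called (9 subunits and 2 assembly factors), and the cause was not tested. The share of all genes called with the block is not given here. Leaving out a mouse gave 1 to 42 complex I genes, 1 to 37 subunits and 0 to 5 assembly factors. Of all genes, 2426 to 5597 were then called in either direction, compared with 4663 from 6 mice and 2866 with the ERCC spike-ins.

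The subunit median moved to 0.15 with library size alone and -0.21 with the ERCC spike-ins, and the assembly factor median to -0.013 and -0.37. Leaving out a mouse gave 0.51 to 0.76 and 0.32 to 0.49, and their difference stayed between 0.12 and 0.28 under all alternatives run. With the ERCC spike-ins 43 genes were below 0, with log2 fold changes that included *Ndufs6* -0.085, *Ndufb4* -0.054, *Ndufb3* -0.071, *Ndufa12* -0.083, *Ndufb8* -0.098, *Ndufs5* -0.087, *Ndufs8* -0.11, *Ndufa1* -0.16, *Ndufa4* -0.17, *Ndufa9* -0.15, *Ndufs7* -0.18, *Ndufa13* -0.26, *Ndufb6* -0.19, *Ndufa10* -0.17, *Ndufb11* -0.25, *Ndufs1* -0.088, *Ndufb7* -0.26, *Ndufa8* -0.21, *Ndufb10* -0.24, *Ndufb9* -0.25, *Ndufv2* -0.19, *Ndufv3* -0.31, *Ndufab1* -0.21, *Ndufb2* -0.28, *Ndufc1* -0.34, *Ndufv1* -0.27, *Ndufa11* -0.32, *Ndufs3* -0.33, *Ndufa6* -0.34, *Ndufb5* -0.35, *Ndufa7* -0.46, *Ndufc2* -0.43, *Ndufs4* -0.43, *Ndufa2* -0.46, *Ndufaf2* -0.20, *Ndufaf1* -0.25, *Ndufaf6* -0.28, *Ndufaf4* -0.20, *Ndufaf8* -0.49, *Ndufaf5* -0.45, *Ndufaf7* -0.61 and *Ndufaf3* -0.81. With library size alone they were *Ndufa7* -0.069, *Ndufc2* -0.070, *Ndufs4* -0.074, *Ndufa2* -0.092, *Ndufaf8* -0.10, *Ndufaf5* -0.13, *Ndufaf7* -0.25 and *Ndufaf3* -0.44. *Ndufaf3* also took a value below 0 with upper-quartile scaling (-0.085), limma-voom (-0.019), no count filter (-0.022), at least 10 counts in every library (-0.040) and the replicate block (-0.013), and in 4 of the fits without a mouse (-0.14 to -0.003). The shift between scalings follows from their construction, since each moves all genes by one amount per library. Of the 23 calls, 1 (*Ndufs1*) held in each fit that left out a mouse.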
